A study of Mus musculus with 6 samples.

Results

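The respiratory chain genes described here are the nuclear-encoded genes whose symbols match the families Nduf (complex I), Sdh (complex II), Uqcr (complex III), Cox4 to Cox8 (complex IV) and Atp5 (complex V). They comprised 85 of the 22162 genes in the deposited table, with 37 genes for complex I, 4 for complex II, 8 for complex III, 19 for complex IV and 17 for complex V. They were chosen by symbol, and no measured value enters the rule. RNA sequencing of polyadenylated RNA was carried out on mouse skin fibroblasts (MSFs), cultured at 3% oxygen, that carry a tamoxifen-inducible Cre-ERT2 driven by the pro-alpha 2(I) collagen promoter together with a ROSA26 lox-stop-lox p27Kip1-IRES-GFP allele (the FASST mouse, on an FVB/N background, from which the dorsal skin of a female was taken). Both groups carry these alleles, and Cre acts only in cells in which the collagen promoter is active. The 3 libraries labelled TAM came from cells given 10 µM tamoxifen for 48 h to induce p27Kip1 and senescence, and the 3 labelled EtOH from cells given the ethanol vehicle. Nothing in the labels says that the 3 libraries of a group came from separate cultures or animals, so the p-values below measure only the spread between these libraries, which may be technical. The comparison asks whether the transcripts for the respiratory chain differ between senescent and non-senescent MSFs.

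The respiratory chain of the inner mitochondrial membrane passes electrons from NADH (complex I) and succinate (complex II) through complex III to complex IV, which reduces oxygen. Complexes I, III and IV pump protons as they do so, and complex V, the ATP synthase, uses the return flow of protons to make ATP. Most subunits are encoded in the nucleus, translated in the cytosol and imported, while a small set encoded by mitochondrial DNA forms the membrane core of complexes I, III, IV and V. The mitochondrially encoded subunits were not analysed here. Several members have a tissue-specific or oxygen-responsive sister gene, and Ndufa4l2 is a known target of the hypoxia-inducible factor HIF-1. A few genes caught by symbol are no longer counted where the symbol puts them. Ndufa4 is now placed in complex IV, Cox7a2l is a supercomplex assembly factor, and Cox4nb, Atp5s and Atp5sl are not subunits.

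The normalized counts summed to between 14952367 and 17314953 per library. Cdkn1b, the gene for p27Kip1, had 1427, 3074 and 1853 normalized counts in the EtOH libraries and 1699, 1519.8 and 1630.0 in the TAM libraries, so the TAM values lay inside the EtOH range and the targeted gene was not higher under its label (log2 fold change -0.32 ± 0.28 (SE, n = 3 per group), adjusted p = 0.677). Whether reads of the transgene were counted under this gene is not given in the sources used here, and the groups are therefore called by their labels. All 10 fibroblast markers passed the filter on low values, and Col1a1 lay between 265664 and 568528 normalized counts. Markers of other cell types listed at 0 in all 6 libraries included Ckm, Myh4 and Myh8 of skeletal muscle and Ucp1 of brown fat. Emr1 of macrophages, Krt1 of keratinocytes and Cldn5 of endothelium were at 0 in all 6 as well. Other markers on those lists were present. The keratinocyte marker Krt5 had 0.64, 0 and 0 normalized counts in EtOH and 2.96, 7.53 and 13.4 in TAM, and Ivl had 153 in TAM 2. The 2 keratinocyte markers tested had log2 fold changes below 0. Trp63 had 25.12, 25.78 and 24.85 in EtOH and 7.15, 2.5 and 6.87 in TAM (-2.11 ± 0.54, adjusted p = 0.187), and Krt10 was at -0.023 ± 0.30. The 10 macrophage markers summed to 216 to 562 normalized counts in EtOH and 391 to 596 in TAM. Lyz2 had 46.8, 35.2 and 62.9 normalized counts in the EtOH libraries and 103, 143 and 159 in the TAM libraries (adjusted p = 0.141). Of the 4 macrophage markers tested, 1 had a log2 fold change below 0, Cd68 at -0.59 ± 0.69. The 19 muscle markers summed to 214 to 562 in EtOH and 195 to 1583 in TAM, with Acta1 at 1404 in TAM 2. Of the 3 muscle markers tested, Acta1 was at 1.70 ± 1.38, Actn3 at -0.27 ± 0.53 and Tnnt3 at -1.67 ± 0.68. The 12 keratinocyte markers summed to 83.3 to 92.2 in EtOH and 71.3 to 351 in TAM, highest in TAM 2, the 12 adipocyte markers to 35.2 to 391 and 151 to 216, and the 10 endothelial markers to 148 to 471 and 217 to 991. Of the 3 adipocyte markers tested, Dio2 (3.47 ± 0.94, adjusted p = 0.206) and Pparg (1.06 ± 0.48, adjusted p = 0.403) had every TAM value above every EtOH value. Fabp4, at 337 in EtOH 2, was at -0.26 ± 1.12. Of the 2 endothelial markers tested, Kdr fell in TAM where the replicate number was a block (adjusted p = 0.0488, and 0.0608 without the block), while Flt1 lay the other way (log2 fold change 2.15 ± 1.26, adjusted p = 0.525, and 0.152 with the block). The summed fibroblast markers took 8.53% to 10.2% of the EtOH libraries and 3.97% to 7.13% of the TAM libraries. Col1a1, Col1a2 and Col3a1 made up most of these sums. Of the 10 fibroblast markers, 6 had a log2 fold change below 0. Thy1 (1.36), Fbln1 (0.90), S100a4 (0.28) and Pdgfrb (0.085) lay above 0. The markers named as listed at 0 were picked for mention after their values were seen, as were Krt5, Ivl, Lyz2, Acta1 and Flt1. The same holds for Trp63, Krt10, Cd68, Actn3, Tnnt3, Dio2, Pparg and Fabp4. The part of these markers in the results below was not tested. The library EtOH 2 stood apart: 18 hypoxia targets summed to 224532 normalized counts there and to between 35879 and 68859 in the other 5 libraries. In bulk RNA, fewer cells of a type and less RNA per cell cannot be told apart.

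Upstream sequence is shown for the 5 respiratory chain genes with the lowest log2 fold change among those whose TAM and EtOH values did not overlap, and for Ndufa4, the gene with the highest. Each run is the 120 bases before the RefSeq start site in GRCm38.p6, and capitals mark a match to the core motif of NRF1 (GCATGCGC, which overlaps its own reverse complement, so that a run of both is longer) or of ETS factors such as GABP (CCGGAAGT), each searched on both strands. NRF1 and GABP are known regulators of respiratory chain genes.
Atp5g2 (chr15:102671048-102671167, minus strand): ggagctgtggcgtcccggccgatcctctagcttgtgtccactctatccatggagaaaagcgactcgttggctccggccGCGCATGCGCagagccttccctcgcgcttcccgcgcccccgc
Uqcrh (chr4:116075071-116075190, minus strand): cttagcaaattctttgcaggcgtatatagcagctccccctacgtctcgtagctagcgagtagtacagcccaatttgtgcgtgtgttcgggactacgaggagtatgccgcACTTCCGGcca
Ndufa6 (chr15:82354292-82354411, minus strand): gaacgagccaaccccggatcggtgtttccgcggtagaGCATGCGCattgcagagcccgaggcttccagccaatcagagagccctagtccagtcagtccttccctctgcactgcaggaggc
Cox7a2l (chr17:83514334-83514453, minus strand): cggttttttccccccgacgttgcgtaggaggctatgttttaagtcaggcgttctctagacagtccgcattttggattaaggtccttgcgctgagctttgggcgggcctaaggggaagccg
Ndufb5 (chr3:32736943-32737062, plus strand): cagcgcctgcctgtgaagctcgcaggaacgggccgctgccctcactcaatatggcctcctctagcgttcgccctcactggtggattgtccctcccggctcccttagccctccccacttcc
Ndufa4 (chr6:11907451-11907570, minus strand): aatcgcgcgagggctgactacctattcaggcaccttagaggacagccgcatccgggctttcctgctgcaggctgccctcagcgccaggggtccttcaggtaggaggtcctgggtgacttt

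A promoter of 300 bases (250 before and 50 after the start) was at hand for 69 of the 85 genes. The NRF1 core motif was in 10 of the 69 (14.5%) and in 3.05% of 27025 genes with a promoter. The ETS motif was in 5 (7.25%, against 4.31%), and the YY1 motif AAGATGGCG in 8 (11.6%, against 1.64%). The hypoxia motif core ACGTG was in 19 (27.5%, against 21.8%), near the share of all genes. Cox7a1, Atp5g1, Atp5g2 and Atp5d were among the 19. Ndufa4l2 and Cox4i2 had no promoter at hand and were not searched. The 10 genes with the NRF1 core lay on both sides of 0, as did the 80 genes tested below, of which 60 were below 0. The part of NRF1 was not tested. The log2 fold changes of the 10 genes were -0.85 for Atp5g2, -0.69 for Ndufa6, -0.14 for Cox6a1, -0.13 for Uqcr11 and -0.12 for Sdhb. They were -0.071 for Atp5l, -0.04 for Atp5k, 0.06 for Uqcrc1, 0.22 for Ndufa8 and 0.28 for Ndufa11. The motifs of Atp5g2 and Ndufa6 are those in capitals above.

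Transcripts for the respiratory chain lay slightly lower in the libraries labelled TAM, but no single gene passed the test, and without the library TAM 1 the median was near that of all genes. Of the 85 genes, 80 passed the filter (at least 1 c.p.m., here 16.2 normalized counts, in at least 3 libraries). The remaining 5, all complex IV isoforms, are described below. None of the 80 passed an adjusted p of 0.05 in limma, which called 0.244% of all 11877 genes tested (20 higher, 0.168%, and 9 lower, 0.0758%). With the replicate number as a block, limma also called 0 of the 80 and 1.62% of all genes, and the smallest adjusted p of a respiratory chain gene moved from 0.239 to 0.119 (Atp5g2 in both). At an unadjusted p under 0.05, 7 of the 80 were lower and 0 higher, against 6.7% and 6.67% of all genes, and the lower count is near that background. With the block these were 9 lower and 0 higher, against 8.32% and 8.64%. The standard error of the log2 fold change had a median of 0.21 over the 80 genes and ranged from 0.15 to 1.04, so that differences of the size seen for most of them were not detectable with 3 libraries per group.

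The median log2 fold change, taken on log2(normalized count + 1), was -0.13 over the 80 genes and -0.03 over all genes tested. The fold change was below 0 for 60 of the 80, where 53.8% of all genes were below 0. In 13 genes the 3 TAM values all lay below the 3 EtOH values (11.4% of all genes did so), and in 0 did they all lie above (9.19% of all genes). By size, 10 genes were lower by more than 0.5 on the log2 scale, 4 were higher by more than 0.25, and 52 lay within 0.25 of 0. Scaling by library size moved the median of all genes to 0.08 and that of the respiratory chain genes to -0.02, and relative to all genes the latter was -0.10 under either scaling.

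The 3 same-numbered pairs of libraries did not tell the same story. In pair 1 the TAM value was the lower one for 72 of the 80 genes (54.8% of all genes), with a median difference of -0.36. In pair 2 it was lower for 34 (50% of all genes), with a median of 0.068, and in pair 3 for 53 (55.8% of all genes), with a median of -0.11. Over the whole table these medians were -0.051, 0.00099 and -0.053. The TAM value was lower in all 3 pairs for 24 genes (23.6% of all genes) and higher in all 3 for Ndufs5, Ndufa8 and Ndufb3 (18.3% of all genes). Of the 6 libraries, TAM 1 held the lowest value for 52 of the 80 genes (65%), where it was lowest for 19.3% of all genes. The number 2 libraries held the highest values for most, TAM 2 for 35 genes (43.8%, against 25.7% of all genes) and EtOH 2 for 29 (36.2%, against 24.5%). Summed, the 85 genes took 0.663%, 0.795% and 0.659% of EtOH libraries 1 to 3 and 0.543%, 0.734% and 0.661% of TAM libraries 1 to 3, so that TAM 1 was the lowest and the other libraries of the groups overlapped. Without TAM 1 the median over the 80 genes was -0.007, with 41 below 0, and without TAM 2 it was -0.23 over 79 genes, with 67 below 0. Without both libraries of number 2 it was -0.18, with 70 of 79 genes below 0.

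**Figure D1:**
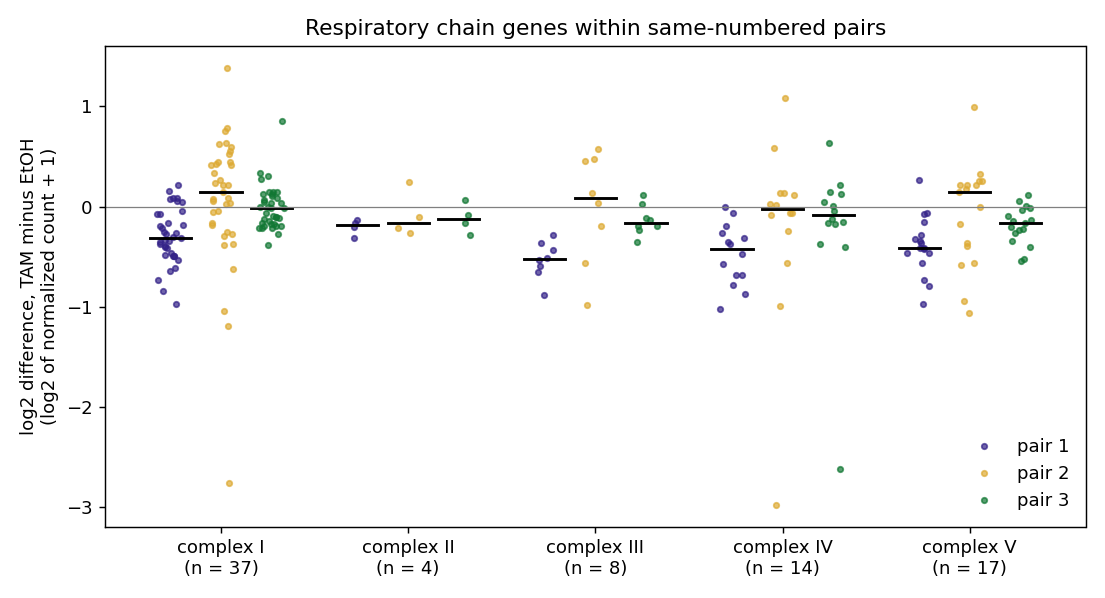
Log2 difference (TAM minus EtOH, log2 of normalized count + 1) of each tested gene within each same-numbered pair of libraries, by complex; points are genes and black bars are medians. Pair 1 lies lowest in every complex, and the pair 2 medians of complexes I, III and V lie above 0.

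Complex I, the entry point for electrons from NADH, had a median log2 fold change of -0.07 over 37 tested genes, of which 23 were below 0, and without TAM 1 the median was 0.033. The catalytic core genes given here had log2 fold changes from -0.23 to 0.20, and their groups overlapped. Ndufs1, which carries iron-sulphur clusters, had 896, 613 and 848 normalized counts in the EtOH libraries and 999.9, 953 and 742 in the TAM libraries (log2 fold change 0.20 ± 0.22), and the groups overlapped. For Ndufv1, the flavin subunit that takes electrons from NADH, the values were 908, 828 and 928 against 719.8, 863 and 871 (EtOH against TAM, libraries 1 to 3 in order, as below), with a log2 fold change of -0.12 ± 0.16. Of other core subunits, Ndufs3 was at -0.0051, Ndufv2 at -0.066, Ndufs8 at -0.22 and Ndufs7 at -0.23, and none had an adjusted p below 0.67.

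Among the lowest genes of complex I were accessory subunits, which surround the core. Ndufa6 (mm9 chr15:82180569-82184721) had 1528, 2275 and 1705 normalized counts in the EtOH libraries and 1085, 993 and 1308 in the TAM libraries, with no overlap between the groups and a log2 fold change of -0.69 ± 0.21 (SE, n = 3 per group, adjusted p = 0.243). Ndufb5 (mm9 chr3:32635912-32650488) had 688, 699 and 555 normalized counts in the EtOH libraries and 382, 452 and 501 in the TAM libraries, again with every TAM value below every EtOH value (-0.54 ± 0.19, adjusted p = 0.29). Ndufs6, Ndufb11 and Ndufa13 completed the 5 complex I genes without overlap, with log2 fold changes of -0.27, -0.31 and -0.17. That of Ndufa13 was higher than those of the core genes Ndufs7 and Ndufs8. Ndufa13 had the smallest standard error of the 80 genes, with 1297, 1240.1 and 1295 against 1071, 1196 and 1131. At the high end, Ndufa4 (mm9 chr6:11850373-11857446) had 807, 573 and 897 normalized counts in the EtOH libraries and 768, 1499 and 1129 in the TAM libraries, and the TAM 1 value lay inside the EtOH range (log2 fold change 0.55 ± 0.29, adjusted p = 0.476). The difference was largest in pair 2 (1.39) and was -0.071 in pair 1. Without EtOH 2, the lowest library for this gene, the log2 fold change was 0.36, and without both libraries of number 2 it was 0.13.

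**Figure D2:**
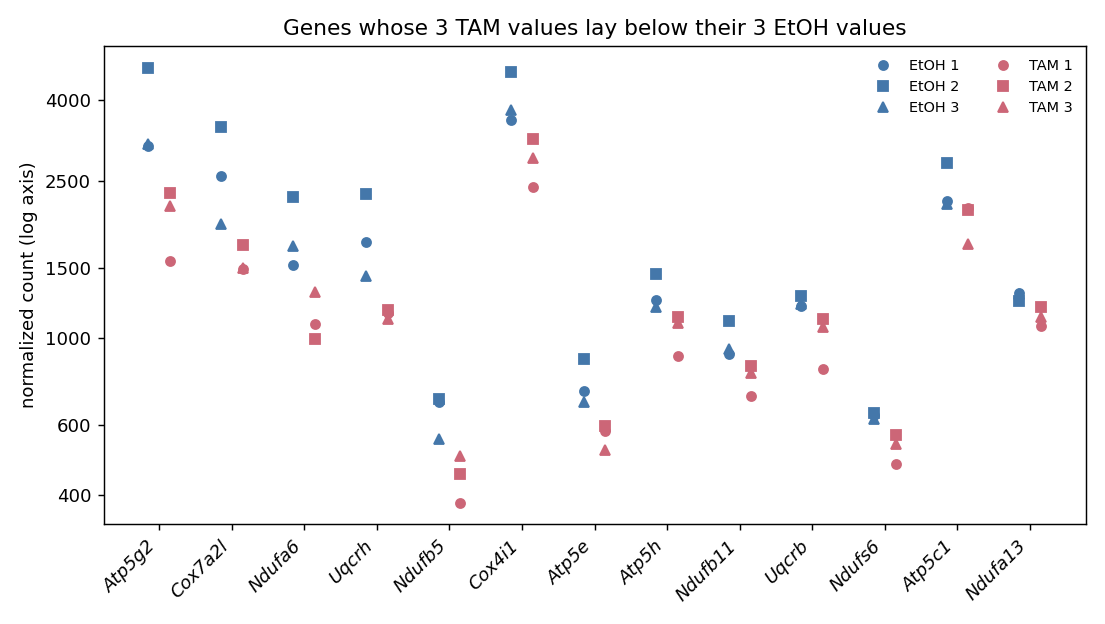
Normalized counts (log axis) of the 13 genes whose 3 TAM values (red) all lay below their 3 EtOH values (blue), ordered by log2 fold change from Atp5g2 (-0.85) to Ndufa13 (-0.17); circles, squares and triangles are libraries 1, 2 and 3. The gap between the groups is narrow for several genes, and EtOH 2 holds the highest value for most.

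Complex II, succinate dehydrogenase, links the chain to the tricarboxylic acid cycle and has no mitochondrially encoded subunit. All 4 of its genes were below 0, from -0.19 to -0.11, but Sdhd was at 0.083 without EtOH 2. The median of the 4 was -0.12, and -0.078 without TAM 1 and -0.21 without TAM 2. Sdha, the flavoprotein that oxidizes succinate, had 2107, 2541 and 2509 normalized counts in the EtOH libraries and 1918, 2116 and 2236 in the TAM libraries, and the groups overlapped, since TAM 2 and TAM 3 lay above EtOH 1 (-0.19 ± 0.16, adjusted p = 0.669). Sdhb, the iron-sulphur subunit, was at -0.12 ± 0.18, and the membrane anchors Sdhc and Sdhd at -0.13 ± 0.18 and -0.11 ± 0.23. The pair medians of complex II were -0.18, -0.16 and -0.13, the closest together among the 5 complexes.

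Complex III, which passes electrons from ubiquinol to cytochrome c, had a median of -0.13 over 8 genes, 7 of them below 0, and without TAM 1 the median was 0.066. Uqcrh, the hinge protein that meets cytochrome c1 (mm9 chr4:115739570-115747639), was the lowest. It had 1749, 2321 and 1431 normalized counts in the EtOH libraries and 1158, 1173 and 1116 in the TAM libraries, with EtOH 2 the highest library and no overlap (-0.65 ± 0.21, adjusted p = 0.261). A stretch of 93.2% of its transcript matches other sequence in mm9 at 95% identity or more, so reads may have been shared with or lost to copies. Uqcrb was the other complex III gene without overlap, with 1202, 1274 and 1219.9 against 832, 1117 and 1065 (-0.31 ± 0.17), and 92.9% of its transcript also matches elsewhere. Of the core proteins, Uqcrc2 had 1201, 1679 and 1131 against 843, 1134 and 959 (-0.44 ± 0.21, adjusted p = 0.442) and Uqcrc1 had 1777, 1474 and 1631 against 1457, 2198 and 1510.2 (0.06 ± 0.21), the highest of the complex. The Rieske iron-sulphur protein Uqcrfs1 was at -0.14 ± 0.25, with TAM 2 the highest of its 6 libraries and TAM 1 the lowest.

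Complex IV, cytochrome c oxidase, had a median of -0.18 over 14 tested genes, 10 of them below 0. The median was 0.0096 without EtOH 2 and 0.0015 without TAM 1. Without EtOH 2, Cox6a2, the lowest of the 14, did not pass the filter, so the 0.0096 leaves it out. That median is the value of Cox6a1, and the next gene below it was Cox4nb at -0.054. Cox4i1, the general isoform of the largest nuclear-encoded subunit (mm9 chr8:123192190-123198109), had 3573, 4709.7 and 3785 normalized counts in the EtOH libraries and 2405, 3196 and 2863 in the TAM libraries, with no overlap (-0.51 ± 0.19, adjusted p = 0.323, and 0.214 with the block). Cox5a, which joins Cox4i1 early in assembly, was at 0.13 ± 0.28, and Cox5b, a zinc-binding subunit, at 0.019 ± 0.16, both with overlapping groups. Cox4nb, which is no subunit and whose gene lies 177 bases from that of Cox4i1 in the table, had 634, 351 and 671 against 554, 747 and 599 (0.24 ± 0.28), so that EtOH 2 was the lowest library for Cox4nb and the highest for Cox4i1. Cox7a2l (mm9 chr17:83901259-83913673), which helps join complexes III and IV, had 2567, 3417 and 1946 normalized counts in the EtOH libraries and 1493, 1719 and 1504 in the TAM libraries, with no overlap (-0.71 ± 0.23, adjusted p = 0.262). Here too 93.6% of the transcript matches elsewhere in the genome.

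The Cox4, Cox6a and Cox6b positions of complex IV were dominated by the general isoform. Per kilobase of transcript, Cox4i1 held at least 99.7% of the summed Cox4 level in each library and Cox6a1 at least 99.05% of that of Cox6a. Cox6b1 likewise held at least 99.2% of the summed Cox6b level. Cox8b was listed at 0 in 5 libraries and at 0.79 normalized counts in TAM 1, and Cox8c and Cox7b2 were listed at 0 in all 6. Their sisters Cox8a and Cox7b, the forms used in most tissues, had log2 fold changes of 0.052 ± 0.19 and -0.22 ± 0.24. Cox6b2, known from testis, lay between 3.45 and 18.2 normalized counts. Among the general forms, Cox6a1 was at -0.14 ± 0.24, Cox6b1 at -0.019 ± 0.24 and Cox7a2 at -0.092 ± 0.23, each with overlapping groups. Cox6a2, the heart and muscle form, was the lowest tested gene of complex IV, with 15.6, 22 and 33.9 against 7.19, 18.4 and 4.71 (-1.29 ± 0.62, adjusted p = 0.428), but these are small counts and TAM 2 lay inside the EtOH range.

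The values of Ndufa4l2, Cox7a1 and Cox4i2 turned on EtOH 2. Ndufa4l2, the lowest of complex I (mm9 chr10:126951995-126954208), had 1300.5, 17572 and 1069.9 normalized counts in the EtOH libraries and 930.3, 2596 and 1935 in the TAM libraries, so that EtOH 2 stood far above the other 5 libraries. Its log2 fold change was -0.80 ± 1.04 (adjusted p = 0.786) with EtOH 2 and 0.50 ± 0.44 (adjusted p = 0.671) without it. Cox7a1, the heart and muscle form of Cox7a (mm9 chr7:30969190-30971047), had 24, 316 and 19.3 normalized counts in the EtOH libraries and 14.5, 39.4 and 30.6 in the TAM libraries, and its log2 fold change went from -1.01 ± 1.04 to 0.26 ± 0.53 without EtOH 2. Cox4i2, the isoform of Cox4 that is raised at low oxygen in lung, was untested, with 14.5 normalized counts in EtOH 2, 0.59 and 2.5 in TAM 1 and TAM 2, and 0 elsewhere. Ndufa4, the sister gene of Ndufa4l2, was lowest in the same library, and its share of the per-kilobase level of the pair was 5.99% in EtOH 2 and 53.0% to 62.1% in the other 5 libraries. Of the 18 hypoxia targets, 17 were also highest in EtOH 2, and their median pair differences were 0.15, -1.96 and 0.20. In pair 2 they ranged from -5.01 for Ankrd37, with 22.4, 1135 and 30.8 against 39.8, 34.3 and 55.8, to -0.32 for Car9, with 62.6, 84 and 57.6 against 81.4, 67 and 66.3, both picked for mention after their values were seen. Adm was highest in EtOH 1. The part of hypoxia in these values was not tested.

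**Figure D3:**
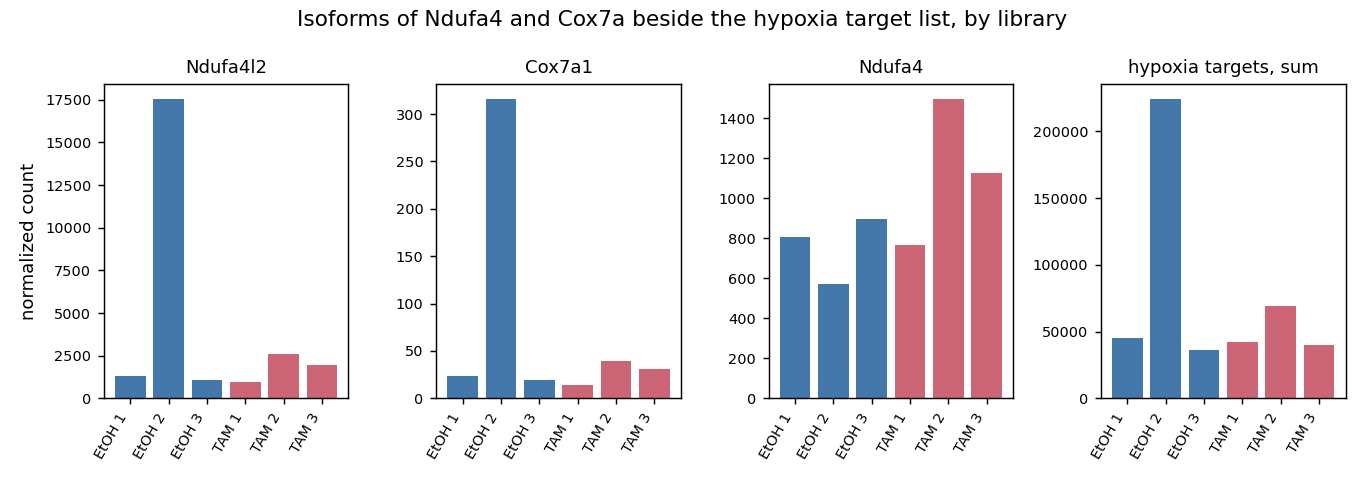
Normalized counts of Ndufa4l2, Cox7a1 and Ndufa4 and the summed normalized counts of 18 hypoxia targets (linear axes from 0, one bar per library, EtOH blue and TAM red). EtOH 2 is the highest bar for Ndufa4l2, Cox7a1 and the hypoxia targets and the lowest for Ndufa4.

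Complex V, the ATP synthase, had a median of -0.17 over 17 genes, and 16 of the 17 were below 0. The median was -0.067 without TAM 1, -0.29 without TAM 2 and -0.055 when scaled by library size. The catalytic head lay near the rest. Atp5b, the catalytic beta subunit and per kilobase the highest of all 85 genes in EtOH (7026 normalized counts per kilobase), had 12978, 14359.8 and 13048 normalized counts in the EtOH libraries and 7792, 16677 and 11806 in the TAM libraries, and the TAM 1 and TAM 2 values were the lowest and highest of the 6 libraries (-0.22 ± 0.30, adjusted p = 0.795). The alpha subunit Atp5a1 was at -0.14 ± 0.20. The gamma subunit Atp5c1, the rotating shaft, had 2224, 2770.3 and 2184 against 2128, 2104 and 1724, with no overlap (-0.27 ± 0.18). Its partners in the central stalk, Atp5d and Atp5e, were at -0.52 ± 0.27 and -0.44 ± 0.17, and the Atp5e values of 734, 884 and 687 against 581, 598 and 518 did not overlap, while TAM 2 exceeded EtOH 1 and EtOH 3 for Atp5d. Atp5h, of the peripheral stalk, completed the 4 complex V genes without overlap (-0.32 ± 0.17). Atp5s, a factor that is no subunit, was the highest of the complex at 0.25 ± 0.44, and without EtOH 2, its lowest library, it was at -0.24.

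The proton-carrying ring of the ATP synthase is built of subunit c, which 3 genes encode with the same mature protein but different import sequences. Atp5g2 (mm9 chr15:102493299-102501478) had 3070.1, 4837 and 3101 normalized counts in the EtOH libraries and 1562, 2323 and 2155 in the TAM libraries, the lowest log2 fold change among the 80 genes bar Cox6a2 and Cox7a1 (-0.85 ± 0.25 (SE, n = 3 per group), adjusted p = 0.239, and 0.119 with the block). Every TAM value lay below every EtOH value, EtOH 2 was the highest library, and without both libraries of number 2 the log2 fold change was -0.75. Atp5g1 was at -0.26 ± 0.27 and Atp5g3 at -0.019 ± 0.21, both with overlapping groups. Per kilobase of transcript, Atp5g2 made up 53.0%, 64.9% and 58.1% of the summed level of the 3 genes in EtOH libraries 1 to 3 and 42.3%, 42.7% and 52.0% in TAM libraries 1 to 3. Atp5g3 made up 34.0%, 24.4% and 26.8% in EtOH and 43.9%, 39.0% and 34.7% in TAM. Neither share overlapped between the groups, but the gaps were narrow (52.0% against 53.0% for Atp5g2, 34.0% against 34.7% for Atp5g3). The shares are parts of one total, so a lower Atp5g2 share raises the others, and they are no second result beside the Atp5g2 counts. How often such shares overlap for other genes was not tested. All of the Atp5g2 transcript (100%) matches other places in mm9 at 95% identity or more, so its counts depend on how reads with several matches were treated.

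**Figure D4:**
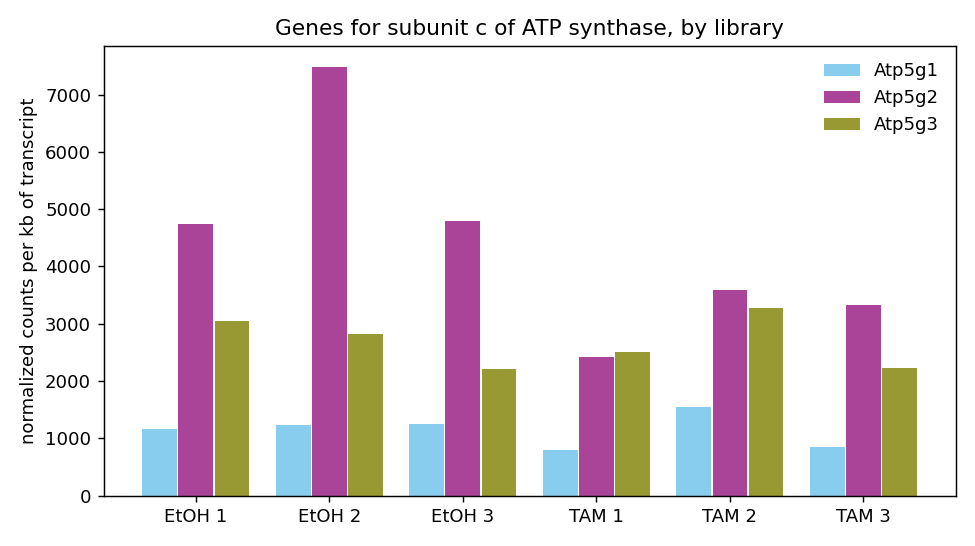
Normalized counts per kilobase of transcript of Atp5g1, Atp5g2 and Atp5g3 in each library (linear axis from 0). Atp5g2 lies between 4745 and 7475 in EtOH and between 2414 and 3591 in TAM, while the bars of Atp5g3 overlap between the groups.

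Without EtOH 2, the highest library for most genes with no overlap, the log2 fold changes were -0.64 for Atp5g2, -0.51 for Cox7a2l, -0.46 for Uqcrh and -0.39 for Cox4i1. Of 79 genes tested without it, 18 changed sign, among them Uqcrc1 (-0.0096), Cox6a1 (0.0096), Cox6b1 (0.10), Cox7a2 (0.024) and Atp5g3 (0.020). Near-identical copies touch other members too: 25 of the 80 tested genes had at least 25% of their transcript matching elsewhere. Over the 55 without such copies, 0 were called and the median log2 fold change was -0.12. By level, the tested genes of complexes III, IV and V had medians of 2290.0, 2336 and 2349 normalized counts per kilobase in EtOH, and those of complexes I and II had 986 and 848. Below Atp5b came Ndufa4l2 (6925, carried by EtOH 2), Cox6a1 (6103) and Cox4i1 (5924). The lowest tested members were Cox6a2 (36.2) and Ndufs5 (37.8).

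Of the genes that build or supply the chain, none passed the test with or without the block. The 10 complex I assembly factors tested had a median log2 fold change of 0.11, and the 22 for complexes II to V had 0.04, and both medians changed sign in some alternatives given in the closing section. The 7 chain components outside the symbol families, cytochrome c (Cycs) and Cyc1 among them, had a median of -0.09. Regulators of mitochondrial biogenesis and mitochondrial DNA had a median of -0.12 over 16 genes, 10 below 0. The lowest was Polg2, with 81.3, 178 and 106 against 52.6, 47.7 and 73.3 and no overlap (-1.01 ± 0.36, adjusted p = 0.295). The transcription factor Nrf1 had 451, 454 and 399 against 354, 293 and 305 (-0.45 ± 0.17, adjusted p = 0.323) without overlap, Gabpa was at -0.16 ± 0.16 and Tfam, the packaging factor of mitochondrial DNA, at -0.37 ± 0.23. Tfb2m and Polrmt, of mitochondrial transcription, lay the other way at 0.49 ± 0.21 and 0.38 ± 0.24, Tfb2m with every TAM value above every EtOH value (adjusted p = 0.385). The 23 genes of the tricarboxylic acid cycle and pyruvate entry had a median of -0.04, and 0 passed the test. The nearest was Idh2, the mitochondrial NADP-dependent isocitrate dehydrogenase, with 1369, 1564 and 1362 against 722, 388 and 556 and no overlap (-1.41 ± 0.25, adjusted p = 0.0915, and 0.0765 with the block). Suclg2 was at -0.68 ± 0.17 (adjusted p = 0.187) and Pcx, the highest, at 0.78 ± 0.27 (adjusted p = 0.277), each without overlap. Polg2, Nrf1, Gabpa, Tfam, Tfb2m, Polrmt, Idh2, Suclg2 and Pcx were picked for mention after their values were seen.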

How the data were processed

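RNA was sequenced from 6 libraries of mouse skin fibroblasts, 3 given tamoxifen (TAM) and 3 given ethanol (EtOH), grouped by GEO's labels. Per the labels and the study's methods, the authors aligned reads to mm9 with TopHat, counted them per RefSeq gene with HTSeq and tested differential expression in edgeR with TMM normalization (versions not given in the sources used here). The deposited values are normalized counts, a signal that need not be whole, and whether they carry that TMM scaling alone is not stated. A count model could not be used, so the design's limma test was run on the deposited signal as log2(normalized count + 1), with an intensity trend, two-sided, with Benjamini-Hochberg adjustment over the 11877 genes that reached 1 c.p.m. in 3 or more libraries. Read depth per library is known only loosely, so no counting intervals are given, and the strand setting of the counting was not given.

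The methods name no pairing of the libraries, so the fit without a block is the main one. In these same data, deviations from the group means correlated across genes at r = 0.24, 0.29 and 0.42 for the same-numbered pairs. For libraries of different number r lay between -0.31 and 0.037. A fit with the number as a block is therefore given beside results it changes. R 4.3.3, limma 3.58.1, Python 3.11.15 and BLAST 2.17.0 were used. Transcripts of GENCODE M1 (mm9), whose median length per gene gave the per-kilobase levels, were matched to the mm9 genome at 95% identity over 100 bases or more to find copies. Promoters came from RefSeq (GRCm38.p6) through accessions. The limma fit without the block was tested on simulated data with the means and spread of all genes tested. It recovered 18 of 66 genes changed by 1 on the log2 scale (27.3%). At a change of 2 it recovered 50 of 67, and at 3 it recovered 62 of 67. The members and lists were chosen with earlier results of these data known. Named genes were the core subunits, the isoform groups, the highest and lowest tested gene of each complex, genes without overlap between the groups, any gene called and Cdkn1b; genes without overlap were added after their values were seen. Alternatives were the block, other pseudocounts, scalings and filters, library weights, leaving out each library, and leaving out genes with copies. A gene that the rule for named genes covers is not reported here. Mitochondrially encoded subunits and ribosomal proteins were not analysed here.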

Additional observations from a re-analysis of the deposited data

How the results depend on the processing

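No respiratory chain gene was called under any of the alternatives run, and their median log2 fold change (-0.13) stayed below 0 in each, from -0.23 to -0.007 when 1 library was left out. Relative to the median of all genes it was above 0 without TAM 1, by 0.018. Over the whole table the 29 called genes became 192 with the replicate block (119 higher and 73 lower), 742 with library weights, 17 with no filter on low values, 18 with at least 10 in every library and 0 to 15 with 1 library left out. Leaving out both libraries of number 2, an alternative chosen after seeing the data, gave 9. The block changed no call of a respiratory chain gene; among the gene lists it changed that of Kdr alone. Direction turned as follows, and the cause was not tested. Scaling by library size gave medians of 0.046 for complex I, 0.026 for components outside the symbol families and 0.072 for the tricarboxylic acid cycle, and log2 fold changes of 0.11 for Ndufs3, 0.046 for Ndufv2, 0.0066 for Sdhd, 0.094 for Cox6b1, 0.020 for Cox7a2 and 0.094 for Atp5g3. Median-ratio scaling gave 0.014 for Ndufs3, 8.4e-05 for Cox6b1 and 7.8e-05 for Atp5g3, and quantile normalization 0.034, 0.030 and 0.030 for the same genes. Library weights gave medians of -0.019 for complex I assembly factors and 0.017 for hypoxia targets, with -0.097 for Ndufs1, 0.00999 for Ndufs3, -0.13 for Uqcrc1, -0.0697 for Cox5b, 0.012 for Cox6b1, 0.043 for Cox7a1, 0.26 for Ndufa4l2 and -0.058 for Cox4nb. Without both libraries of number 2 the medians were -0.078 for complex I assembly factors, -0.061 for those of complexes II to V and 0.28 for hypoxia targets, with -0.017 for Ndufs1, 0.073 for Ndufs3, -0.20 for Uqcrc1, -0.11 for Cox5a, -0.0285 for Cox5b, 0.19 for Ndufa4l2, -0.18 for Cox4nb, -0.12 for Atp5s and 0.033 for Cdkn1b.

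With each library left out in turn, medians ranged from -0.17 to 0.033 for complex I, from -0.21 to -0.078 for complex II, from -0.29 to -0.067 for complex V, from -0.38 to 0.066 for complex III, from -0.31 to 0.0096 for complex IV, from -0.051 to 0.16 for complex I assembly factors, from -0.043 to 0.11 for complexes II to V assembly factors, from -0.20 to 0.15 for components outside the symbol families, from -0.16 to 0.026 for tricarboxylic acid cycle enzymes and from -1.13 to 0.20 for hypoxia targets. Log2 fold changes ranged from -0.094 to 0.0799 for Ndufs3, from -0.41 to 0.033 for Ndufs8, from -0.23 to 0.0402 for Ndufv2, from -0.24 to 0.083 for Sdhd, from -0.13 to 0.17 for Uqcrc1, from -0.39 to 0.021 for Uqcrfs1, from -0.17 to 0.36 for Cox5a and from -0.051 to 0.095 for Cox5b. They also ranged from -0.49 to 0.061 for Atp5b, from -0.31 to 0.045 for Cox6a1, from -0.22 to 0.17 for Cox6b1, from -1.72 to 0.26 for Cox7a1, from -0.27 to 0.096 for Cox7a2, from -0.031 to 0.19 for Cox8a, from -1.52 to 0.50 for Ndufa4l2, from -0.18 to 0.10 for Atp5g3, from -0.054 to 0.41 for Cox4nb and from -0.24 to 0.55 for Atp5s. The lowest or highest value of these ranges came mostly without TAM 1, TAM 2 or EtOH 2. Cox6a2 did not pass the filter without EtOH 2, so the 0.0096 for complex IV leaves it out. With 3 libraries per group and unknown depth, small differences were not detectable.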
